A study of Homo sapiens with 6 samples.

Results

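The BCL2 family decides whether the outer membrane of the mitochondrion stays closed, and 10 of its core genes were described here in K562 cells exposed to calactin. They were MCL1, BCL2, BCL2L1, BCL2A1, PMAIP1, BBC3, BCL2L11, BAX, BAK1 and BID. The members were the probe sets whose platform annotation gives 1 of these symbols alone, which found 30 of 54613 probe sets, for 9 of the 10 genes. K562, an established cell line from a patient with chronic myeloid leukaemia, has the BCR-ABL1 fusion and lacks working p53. The tested cells had been given calactin, a cardenolide and so an inhibitor of the sodium pump, at a labelled 0.15 mM for 12 h, and the comparison cells were untreated and of the same 12 h time point. There were 3 arrays of each group, called biological replicates in the labels, which do not say whether they came from separate cultures.

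Survival members of the family (MCL1, BCL2, BCL-XL from BCL2L1, and BFL1 from BCL2A1) hold the membrane closed by binding their relatives. BAX and BAK1 encode the effectors that open it. The BH3-only members sense stress: NOXA from PMAIP1, PUMA from BBC3, BIM from BCL2L11, and BID, which caspase-8 cuts into its active form. NOXA binds mainly MCL1 and BFL1, whereas BIM and PUMA bind all survival members. In BCR-ABL1 leukaemia, STAT5 is known to raise BCL2L1 and MCL1. MCL1 messenger RNA and protein are both short-lived.

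The promoters of a rising and a falling member are given first, as RefSeq on GRCh38.p14 has them, because PMAIP1 and BID were the genes of each direction with a called probe set and a listed start. Each run holds the 250 bases before the outermost annotated start, 5′ to 3′ on the gene's strand, and capitals mark GC boxes (GGGCGG on either strand). The PMAIP1 run is chr18:59899746-59899995 on the plus strand, and the BID run is chr22:17774666-17774915 on the minus strand.
PMAIP1: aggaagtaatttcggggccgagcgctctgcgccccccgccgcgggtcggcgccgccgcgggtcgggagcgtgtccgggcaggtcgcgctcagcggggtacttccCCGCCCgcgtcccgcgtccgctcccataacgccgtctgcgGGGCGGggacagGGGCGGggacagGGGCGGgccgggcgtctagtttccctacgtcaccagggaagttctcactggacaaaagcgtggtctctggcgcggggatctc
BID: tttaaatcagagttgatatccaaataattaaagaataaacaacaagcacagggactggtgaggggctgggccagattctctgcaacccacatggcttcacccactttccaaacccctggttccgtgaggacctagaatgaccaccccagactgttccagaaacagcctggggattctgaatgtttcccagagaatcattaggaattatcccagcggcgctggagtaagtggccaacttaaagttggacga
Base composition differed between them, with 72.8% G and C in PMAIP1 and 47.6% in BID. PMAIP1 held 4 GC boxes, 3 of them on its own strand, while the BID run held 0, although 4 of the 5 windows listed for BID have one and 2 of the 5 have the E-box CACGTG. A GC box lies in 42.6% of all 35116 windows of this length. The other motifs searched on both strands, TGACGTCA, TGATGNAA, TTCNNNGAA, GCGTGGGCG and CACGTG, had no match in either run. The E-box lay in a window of 3 of the 9 genes with windows, BBC3, BAX and BID, with 4 matches before BAX. It lies in 6.34% of all windows. That share is by window and the count is by gene, and BID alone has 5 windows, so they are not alike. None of these motifs overlapped another in the runs shown. Letters alone do not show that a factor binds.

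Signals are linear intensities from 1-colour Affymetrix arrays. The median signal ran from 31.1 to 32.0 on calactin arrays, below the 33.0 to 34.3 on untreated arrays. HBZ and HBE1, embryonic globins that mark K562, were bright in both groups, at 11877 ± 2553 and 13173 with calactin and 11969 ± 2354 and 13552 in untreated cells. Of the 7 erythroid markers measured, 1 was called higher (TAL1, 4067 with calactin and 2147 untreated), 2 lower (TFRC, 7677 and 11262, and GATA1, given below) and 4 were not called. Of the T cell, B cell and monocyte markers, CD3E, CD3G, CD2, CD5, MS4A1, CD79A, CD79B, PAX5, CD14, CSF1R, FCGR1A, CD163 and ITGAM averaged at most 76.9 in either group. CD3D was bright, at 1703 with calactin and 2330 in untreated cells. Of the epithelial and fibroblast markers, EPCAM averaged 2547 with calactin and 2953 untreated, and COL1A1 818 and 787. CDH1, KRT5, COL3A1 and PDGFRB averaged at most 19.1 in either group. The summed level of the 5 T cell markers was 1780 to 1959 with calactin and 2258 to 2670 untreated, that of 4 B cell markers 108 to 127 and 109 to 129, that of 5 monocyte markers 121 to 174 and 106 to 179, and that of 6 epithelial and fibroblast markers 3291 to 3623 and 3475 to 3975. A control probe set for the middle of 28S ribosomal RNA read 7119 to 13172 with calactin and 529 to 1051 in untreated cells, and its part in the results was not tested. The ratio of the 3′ to the 5′ ACTB control was 1.17 to 1.41 with calactin and 1.23 to 1.49 untreated. The geometric mean of the poly-A spikes was 83.4 in calactin replicate 3 and 112 in untreated replicate 3, against 887 to 1896 in the other 4 arrays.

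With calactin, the BH3-only gene PMAIP1 rose, and the survival gene MCL1 and the BH3-only gene BID fell, each by about 1.5 to 1.6-fold. These were the 3 genes with a called probe set in the fit without a replicate block. BCL2L1 had lower values in 3 of its 4 probe sets, which missed the threshold there. BCL2L11, BAX, BAK1, BCL2 and BCL2A1 had no called probe set in that fit. A probe set was called at an adjusted p under 0.05 in limma over all 54613 probe sets. Of the 30, 2 were called higher and 4 lower, where 3.68% of all probe sets were called higher and 10.3% lower, so the number of calls in the family is not itself a result. The replicate numbers paired the arrays. With them as a block, 4 were called higher and 7 lower, against 5.24% and 12.9% of all probe sets. Apart from poly-A spike scaling, calls and list counts are of the fit without the block wherever it is not named. BCL2L1, BCL2L11 and BAK1 gained a called probe set with the block. These were 212312_at (lower, adjusted p = 0.0098), 1553096_s_at (higher, 0.0324) and 203728_at (higher, 0.0327). In a bulk extract, less transcript per cell and fewer cells carrying it cannot be told apart.

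**Figure D1:**
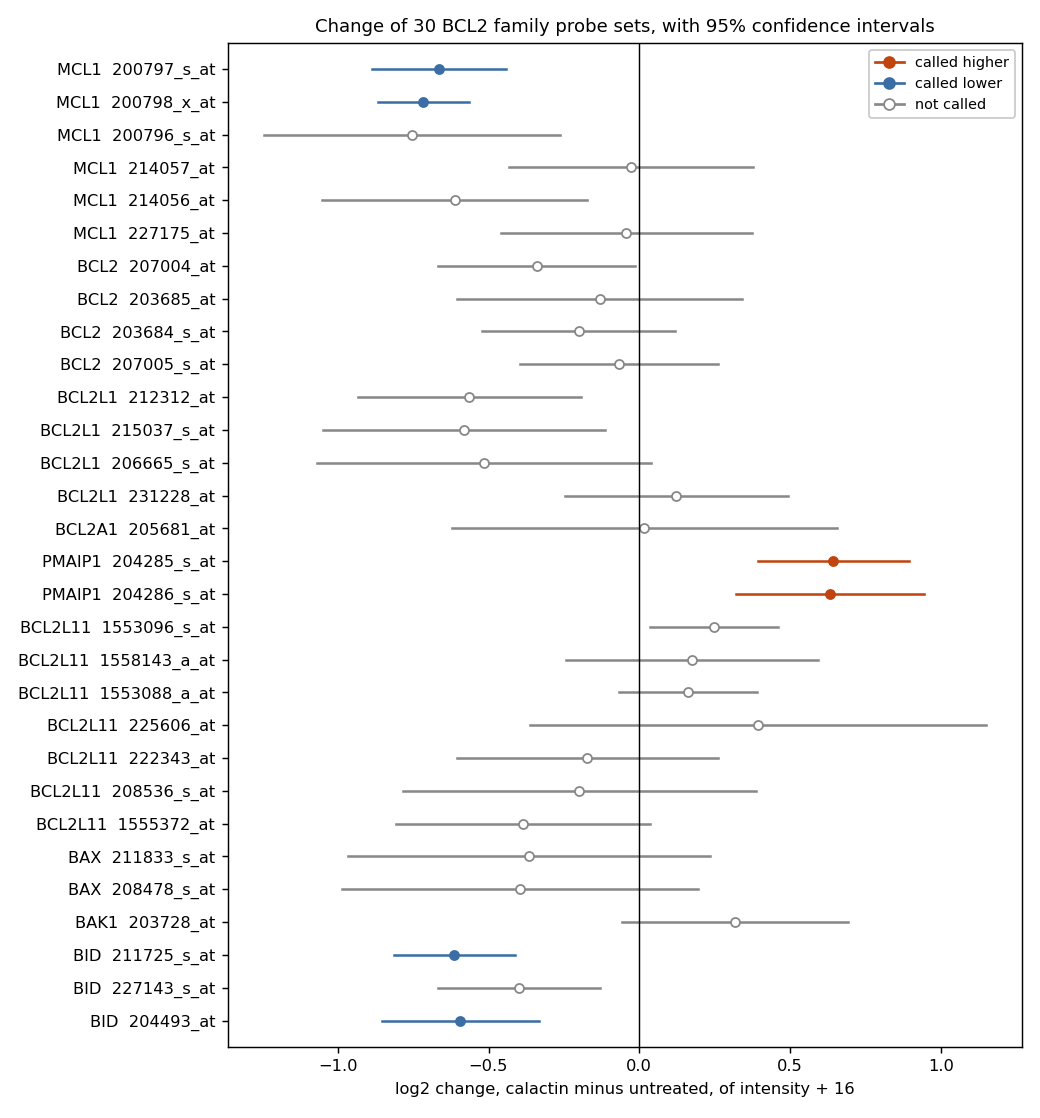
Log2 change (calactin minus untreated, of intensity + 16) of the 30 probe sets on the horizontal axis, 1 row per probe set, with 95% confidence intervals and filled points for those called. Both PMAIP1 points lie right of 0, and the called MCL1 and BID points lie left of 0, between -0.72 and -0.59. With poly-A spike scaling, which here always includes the replicate block, the MCL1 and BID points move to between -0.14 and -0.02 and the median of all probe sets to 0.53.

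The median change of the 30 probe sets was -0.20 on the log2 scale, and that of all probe sets was -0.05. Of the 30, 26 lay above the median signal, and all 6 calls were among these. Above the median signal, 6.97% of all probe sets were called higher and 19.2% lower. The calactin arrays all lay above the untreated ones in 3 of the 30 and all below them in 10, while 9.36% and 19% of all probe sets did so.

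MCL1, which RefSeq places on chromosome 1 from 150574558 to 150579610 of GRCh38.p14, had a probe set standing above 98.1% of all probe sets. That probe set, 200797_s_at, read 3256, 3252 and 3106 with calactin, against 5348, 4359 and 5627 in untreated cells. The calactin arrays lay close together and below every untreated array. MCL1 fell by 0.66 ± 0.10 on the log2 scale of intensity + 16 (SE, n = 3 each), or 1.58-fold, with an adjusted p of 0.00255. By replicate number the differences were -0.71, -0.42 and -0.85.

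A second MCL1 probe set had the smallest spread. 200798_x_at, whose identifier marks probes that can match other sequences too, read 1911, 1827 and 1915 with calactin, against 3222, 3001 and 3094 untreated, and fell by 0.72 ± 0.07 (adjusted p = 3.3e-04). Another, 200796_s_at, read 438, 643 and 393 with calactin and 945, 947 and 619 in untreated cells. Calactin replicate 2 there lay above untreated replicate 3, so the groups overlapped. Its difference of -0.75 ± 0.21 was not called (adjusted p = 0.0516), and it was called with the replicate block (adjusted p = 0.00314), without calactin replicate 2 (0.0282) and without untreated replicate 3 (0.0348). Median centring (0.046), hybridisation spike scaling without the block (0.0473), probe sets above the median signal alone (0.00917) and robust estimation (0.0122) called it too.

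The 3 dim MCL1 probe sets did not move alike. 214056_at read 52.1 to 64.1 with calactin and 77.5 to 125 in untreated cells, a difference of -0.61 ± 0.19 that was not called (adjusted p = 0.0751). 214057_at averaged 84.7 ± 14.9 with calactin and 86.7 ± 15.0 untreated (SD, n = 3 each), and 227175_at averaged 32.4 ± 4.4 and 33.9 ± 5.7. Both sets of values overlapped between the groups, with intervals of the difference of -0.43 to 0.38 for 214057_at and -0.46 to 0.37 for 227175_at. Which MCL1 transcripts each probe set reads is not given in the sources used here.

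**Figure D2:**
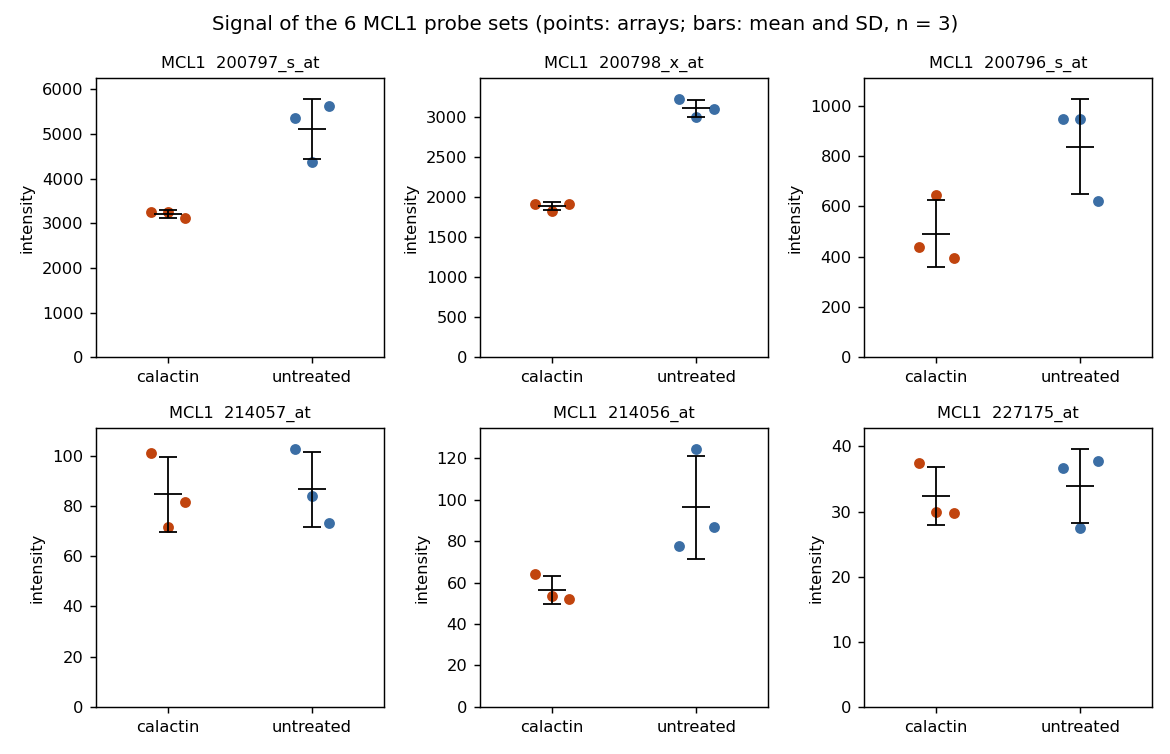
Signal (linear intensity, vertical axis from 0) of the 6 MCL1 probe sets in calactin and untreated arrays, with points for arrays and bars for mean and SD (n = 3 each). The 3 brightest probe sets average 3205, 1884 and 491 with calactin and 5111, 3105 and 837 untreated, while 214057_at and 227175_at overlap between the groups.

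Whether probe sets of a gene changed unequally was tested on their ratio within each array, which no scaling of the arrays alters much. Each further probe set was set against the brightest of its gene, in 1 limma fit over 21316 ratios of 10523 genes, of which 9.27% were called. Of 21 such ratios in the family, 2 were called, both of MCL1. The ratio of 227175_at to 200797_s_at rose by 0.62 ± 0.13 (adjusted p = 0.0113), and that of 214057_at rose by 0.63 ± 0.17 (adjusted p = 0.036). The first was called in all 9 alternatives run for it. The second was lost without calactin replicate 1 (0.533, adjusted p = 0.12), calactin replicate 3 (0.629, 0.0948), untreated replicate 1 (0.707, 0.0545) and untreated replicate 3 (0.464, 0.122), and with a pseudocount of 1 (adjusted p = 0.104). The remaining MCL1 ratios, those of 200798_x_at, 200796_s_at and 214056_at, were between -0.09 and 0.05 and not called. 227175_at lay at the 50.9th percentile of signal, so its own level sits near the median of all probe sets. So dim a probe set may not show a fall, and its ratio then rises through the fall of 200797_s_at alone. The alternatives do not alter this. The ratio therefore cannot tell an MCL1 transcript that held its level from too little signal.

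BCL2L1 encodes the survival protein BCL-XL. Its brightest probe set, 212312_at, read 1029, 892 and 744 with calactin, against 1592, 1066 and 1323 untreated. All 3 calactin arrays lay below the untreated ones, the nearest pair by a small margin. The difference of -0.56 ± 0.16 was not called (adjusted p = 0.0542), with an interval of -0.93 to -0.19. It was called with the replicate block (adjusted p = 0.0098), without untreated replicate 2 (-0.71, 0.0253), under median centring (0.0494), among probe sets above the median signal (0.0119), with robust estimation (0.0136) and when 1 probe set stood for each gene (0.0374), and it was 0.01 under poly-A spike scaling.

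Of the other BCL2L1 probe sets, 215037_s_at read 245 to 335 with calactin and 346 to 585 untreated (-0.58 ± 0.20, adjusted p = 0.111). 206665_s_at read 158 to 252 with calactin and 247 to 449 untreated (-0.51 ± 0.24, adjusted p = 0.246). The dim 231228_at read 88.4, 93.6 and 100.1 with calactin and 101, 87.0 and 69.2 untreated, so its groups overlapped. Its ratio to 212312_at differed by 0.69 ± 0.20 but was not called (adjusted p = 0.0564). That ratio was called with the replicate block (adjusted p = 0.0376, against 13.2% of all ratios), without calactin replicate 1 (0.0448) and without untreated replicate 2 (0.0294). By limma 0 of 4 BCL2L1 probe sets passed the adjusted threshold and 2 had an unadjusted p under 0.05, both lower.

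BCL2 and BCL2A1 were dim in these cells. Of 4 BCL2 probe sets, 3 lay below the median signal, with values of at most 15.6 with calactin and at most 13.1 untreated. The fourth, 207004_at, read 87.2, 104 and 109 with calactin, against 121, 146 and 126 untreated. The groups did not overlap, yet the difference of -0.34 ± 0.14 was not called (adjusted p = 0.187). BCL2A1 read 22.9, 23.2 and 3.78 with calactin and 13.6, 19.3 and 11.9 untreated, which overlap, with an interval of -0.62 to 0.65. The 3 dim BCL2 probe sets and that of BCL2A1 lay between the 3.60th and the 34.7th percentile of signal, and so little signal limits what change can be seen.

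Among BH3-only genes, PMAIP1 (chromosome 18, 59899996 to 59904305) rose in both of its probe sets. 204285_s_at read 1253, 1264 and 1343 with calactin, against 838, 700 and 932 in untreated cells. 204286_s_at read 1148, 1106 and 1198 with calactin, against 782, 587 and 868 untreated. Every calactin array lay above every untreated array in both, and the calactin arrays were the less spread. PMAIP1 rose by 0.64 ± 0.11 in 204285_s_at (adjusted p = 0.00515) and by 0.63 ± 0.14 in 204286_s_at (adjusted p = 0.0157), or 1.56-fold and 1.55-fold. The rise by replicate number was 0.57, 0.84 and 0.52 in 204285_s_at. The ratio of the 2 probe sets changed by -0.009 ± 0.095. Leaving out a calactin array ended the call of 204286_s_at, with 0.63 (adjusted p = 0.0589) without replicate 1, 0.66 (0.0549) without replicate 2 and 0.60 (0.0754) without replicate 3, while 204285_s_at was called with any array left out.

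BID (chromosome 22, 17734138 to 17774665) was lower in all 3 of its probe sets. 211725_s_at read 855, 839 and 997 with calactin, against 1390, 1358 and 1382 untreated. Untreated arrays were close together and well above the highest calactin array. BID fell by 0.61 ± 0.09 there, or 1.53-fold (adjusted p = 0.00225), and by 0.59 ± 0.11 in 204493_at (adjusted p = 0.00917). 204493_at read 215 to 271 with calactin and 362 to 392 untreated. 227143_s_at read 288 to 323 with calactin and 364 to 462 untreated, and its difference of -0.40 ± 0.12 was not called (adjusted p = 0.0592) but was called with the replicate block (0.0135). No array left out ended the calls of 211725_s_at or 204493_at.

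BCL2L11 had 7 probe sets, all above the median signal, and 0 were called by limma. At an unadjusted p under 0.05 there was 1, its brightest, 1553096_s_at. It read 1372, 1304 and 1190 with calactin, against 1190, 1031 and 1030 untreated. Calactin replicate 3 fell just under untreated replicate 1, so the groups touched. The difference was 0.25 ± 0.09 (adjusted p = 0.135), and it was called with the replicate block (adjusted p = 0.0324) and, at 0.38, after quantile normalization (0.0383). By replicate number it was 0.20, 0.33 and 0.20.

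The other BCL2L11 probe sets went both ways. 1558143_a_at, 1553088_a_at and 225606_at differed by 0.18 ± 0.18, 0.16 ± 0.10 and 0.39 ± 0.33, and 222343_at, 208536_s_at and 1555372_at by -0.17 ± 0.19, -0.20 ± 0.26 and -0.38 ± 0.18. The largest of these, 225606_at, rested on an uneven untreated group, with 162, 458 and 214 untreated beside 271, 422 and 335 with calactin. It differed by 0.80 without untreated replicate 2, where it was called (adjusted p = 0.0477), by 0.24 without calactin replicate 2 (0.813) and by 0.0966 without untreated replicate 1 (0.909). The ratio of 1555372_at to 1553096_s_at differed by -0.63 ± 0.20, not called (adjusted p = 0.0839), and called with the replicate block (0.0195) and without untreated replicate 1 (-0.85, 0.0254).

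BBC3 had no probe set with its symbol alone. A single probe set, 211692_s_at, carries the symbols MIR3190, MIR3191 and BBC3 together, and its values are given to none of these genes. It read 681, 871 and 926 with calactin, against 977, 1114 and 1127 untreated (-0.38 ± 0.12, adjusted p = 0.0884).

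The effector genes BAX and BAK1 were not called. BAX read 106, 124 and 177 with calactin in 211833_s_at, against 156, 131 and 265 untreated, and in 208478_s_at it read 66.5, 89.9 and 112 with calactin, against 111, 87.0 and 179 untreated. Replicate 3 was the highest of each group, and the groups overlapped. The differences were -0.37 ± 0.26 and -0.40 ± 0.26, with intervals from -0.97 to 0.23 and from -0.99 to 0.20, which take in the change of MCL1. BAK1 read 444, 330 and 399 with calactin, against 372, 249 and 316 untreated. Each calactin array was above the untreated array of its number, by 0.24, 0.38 and 0.32, although the groups overlapped. The BAK1 difference of 0.32 ± 0.16 was not called (adjusted p = 0.296), and it was called with the replicate block (adjusted p = 0.0327).

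**Figure D3:**
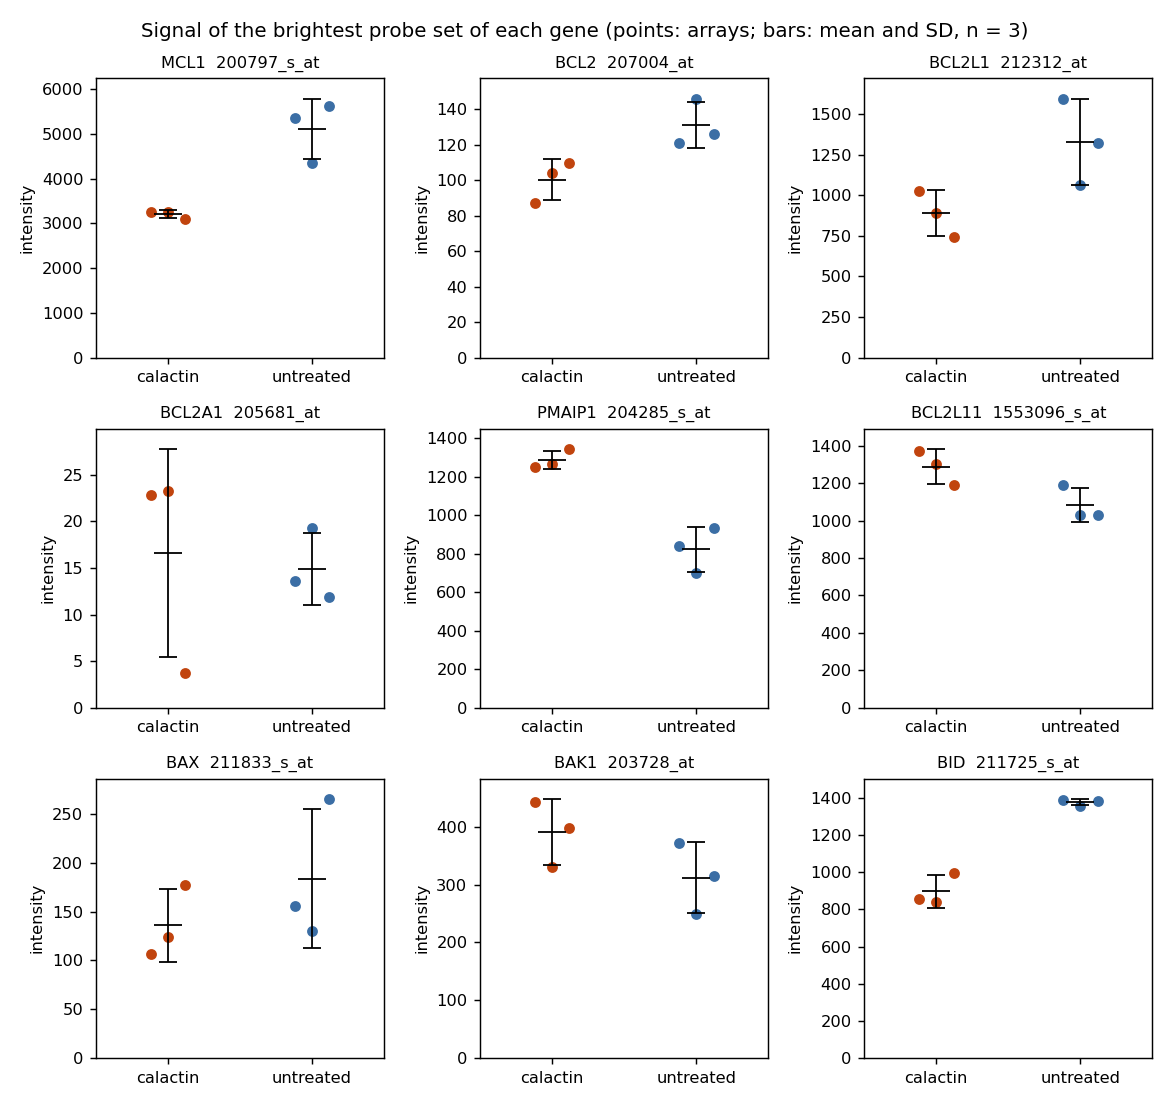
Signal (linear intensity, vertical axis from 0) of the brightest probe set of each of the 9 genes in calactin and untreated arrays, with points for arrays and bars for mean and SD (n = 3 each). PMAIP1 averages 1286 with calactin and 823 untreated, BID 897 and 1377, and the groups overlap for BCL2A1, BCL2L11, BAX and BAK1.

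NOXA is the antagonist of MCL1, and the ratio of their brightest probe sets was followed within each array. Only its change can be read, since levels of different probe sets are not comparable. Centred on its mean over the 6 arrays, the log2 ratio of PMAIP1 to MCL1 was 0.59, 0.61 and 0.76 with calactin and -0.69, -0.65 and -0.61 in untreated cells, a difference of 1.31 ± 0.06 (SE). The ratio of BCL2L11 to MCL1 differed by 0.91 ± 0.12 and that of BAK1 to MCL1 by 0.98 ± 0.16. The ratios of BID and BCL2L1 to MCL1 differed by 0.05 ± 0.14 and 0.10 ± 0.15, with overlapping arrays. Each of these ratios holds MCL1, which itself fell by 0.66, so they are not separate from that fall. PMAIP1 itself rose by 0.64, so its ratio to MCL1 restates both changes and adds no further evidence of them. BCL2L11 and BAK1 alone differed by 0.25 and 0.32. Neither they nor BCL2L1 were called without the replicate block, while the brightest probe set of each was called with it. These ratios are descriptions, and no test was run on them. Their SE treats the arrays as unpaired.

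By Pearson's r over the 6 arrays, the probe sets most like MCL1 200797_s_at among 22736 of other genes above the median signal were those of IER2, LRATD1 and MRPS30, all at 0.998. For PMAIP1 204285_s_at they were PWWP2A (r = 0.9995), ZDHHC3 (0.999) and SWT1 (0.998). The arrays form 2 groups of 3, so such values largely restate a shared difference between the groups.

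Of 14 further BCL2 family genes, judged by their brightest probe set, 4 fell, 0 rose and 10 were not called by limma, and 0 were higher at an unadjusted p under 0.05. Over all genes 4.37% were called higher and 15.1% lower, and 8.37% were higher and 22.3% lower at an unadjusted p under 0.05. Of the 14, 11 lay above the median signal, where 6.97% of all probe sets were called higher and 19.2% lower. The median change of the 14 genes was -0.04, near the -0.06 of all genes. BNIP3, a mitophagy receptor of the outer membrane induced by hypoxia, averaged 1881 ± 102 with calactin and 3743 ± 443 untreated (SD, n = 3 each) and fell by 0.98 ± 0.09 (adjusted p = 3.93e-04). BCL2L12 fell by 0.64 ± 0.09 (adjusted p = 0.00191). BCL2L13, another mitophagy receptor, fell by 0.70 ± 0.17 (adjusted p = 0.0282), a call that ended when calactin 1, calactin 2, untreated 2 or untreated 3 was left out (highest adjusted p = 0.108). BOK, an effector relative of BAX, was dim at 37.6 ± 7.5 with calactin and 72.6 ± 15.5 untreated, and its call (adjusted p = 0.0446) ended whichever of the 6 arrays was left out (highest adjusted p = 0.145). The survival gene BCL2L2 (0.11 ± 0.10) and the BH3-only genes BAD (0.03 ± 0.13), BMF (0.26 ± 0.18) and HRK (0.44 ± 0.22) were not called, nor was the mitophagy receptor gene BNIP3L (-0.28 ± 0.13).

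A list of 13 genes joined those that act once the membrane opens to the channel genes VDAC1, VDAC2 and VDAC3. Of the 13, 11 were measured, of which 5 fell, VDAC1 and VDAC3 among them, 0 rose and 6 were not called by limma. At an unadjusted p under 0.05, 7 were lower and 0 higher. Over all genes 15.1% were called lower, and 22.3% were lower at that unadjusted p. All 11 lay above the median signal, as did 12559 of all 19775 genes. Above that signal 19.2% of all probe sets were called lower, so the share over all genes is not matched on signal. The median of the 11 was -0.25. APAF1, the scaffold of the apoptosome, averaged 178 ± 16 with calactin and 402 ± 45 untreated and fell by 1.1 ± 0.12 (adjusted p = 7.11e-04), though 1 of its 3 probe sets was called. CASP9, the protease that the apoptosome activates, fell by 0.73 ± 0.15 (adjusted p = 0.0117), a call lost without calactin replicate 1 (adjusted p = 0.0512). HTRA2, a released protease, fell by 0.42 ± 0.08 (adjusted p = 0.011), though it was positive, at 0.15, under poly-A spike scaling. The channel genes VDAC1 and VDAC3 fell by 0.49 ± 0.11 (adjusted p = 0.0195) and 0.25 ± 0.07 (adjusted p = 0.0379). Under poly-A spike scaling they were likewise positive, at 0.08 and 0.32. VDAC3 was even called higher there (adjusted p = 0.042), while VDAC1 was not called (0.58). The VDAC1 call ended when calactin 2, calactin 3, untreated 1 or untreated 3 was left out (highest adjusted p = 0.0882), and that of VDAC3 whichever of the 6 arrays was left out (highest adjusted p = 0.127). CYCS, the cytochrome c gene, averaged 10407 ± 586 with calactin and 10266 ± 680 untreated and was not called. The brightest XIAP probe set was not called (0.17 ± 0.10, adjusted p = 0.337), while 4 of its 7 were called higher, an observation chosen after its values were seen. DIABLO (-0.25 ± 0.07) and ENDOG (-0.34 ± 0.10) were not called (adjusted p = 0.0585 and 0.0644) but were called with the replicate block (0.025 and 0.0153).

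**Figure D4:**
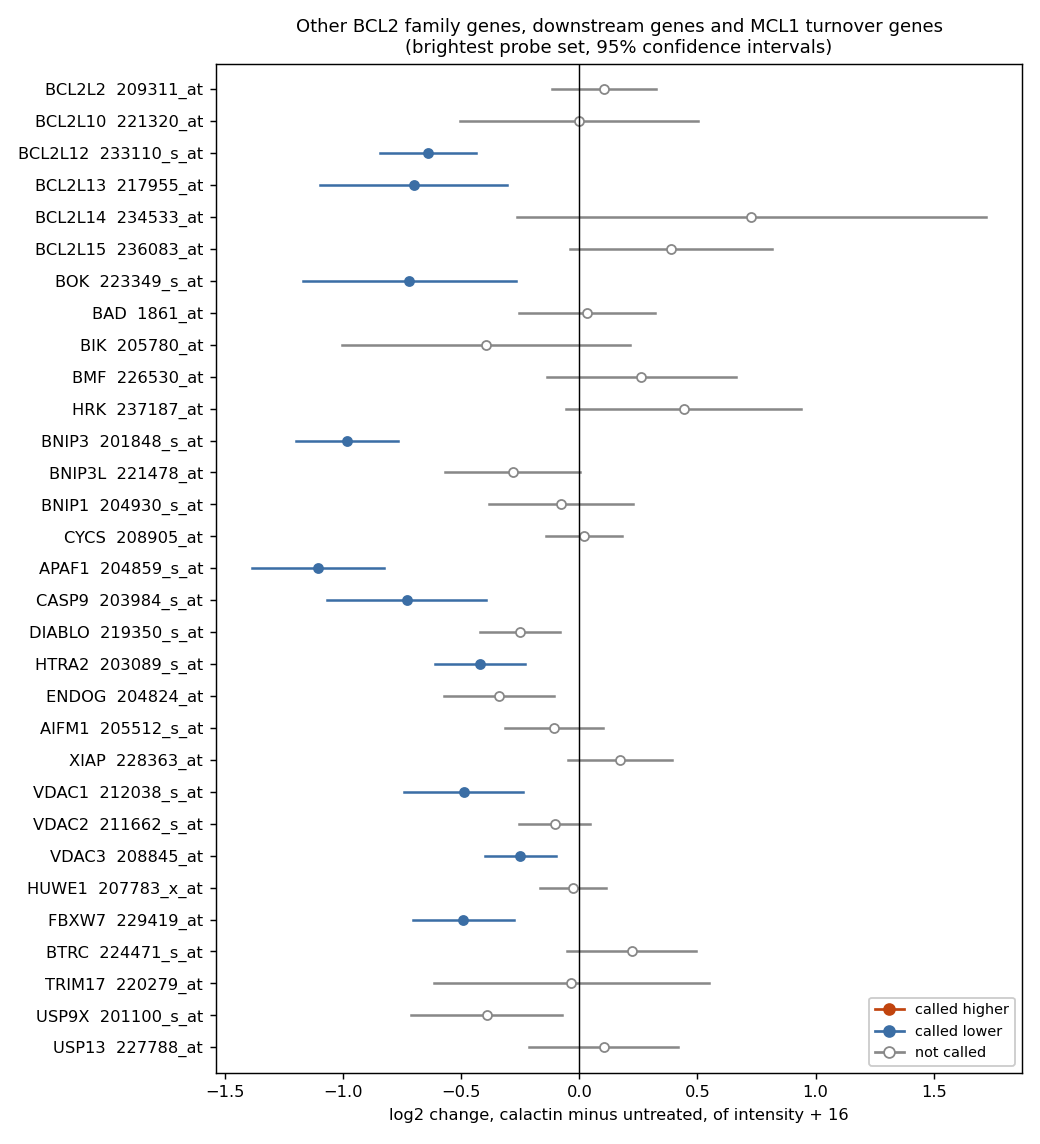
Log2 change (calactin minus untreated, of intensity + 16) on the horizontal axis for the brightest probe set of 14 further BCL2 family genes, 11 downstream and channel genes and 6 genes of MCL1 protein turnover, with 95% confidence intervals. The 10 called genes all lie left of 0, from APAF1 at -1.1 to VDAC3 at -0.25, and HTRA2, VDAC1, VDAC3 and FBXW7 turn positive under poly-A spike scaling.

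Of 6 genes that add or remove ubiquitin on MCL1 protein, 1 fell, 0 rose and 5 were not called by limma, with 2 lower and 0 higher at an unadjusted p under 0.05, and their median was -0.03. A single fall among 6 genes is near the 15.1% of all genes called lower. FBXW7, the part of a ubiquitin ligase that recognises MCL1, averaged 282 ± 8 with calactin and 403 ± 17 untreated and fell by 0.49 ± 0.09 (adjusted p = 0.00882), though it was -0.29 and not called after quantile normalization (adjusted p = 0.0803) and positive, at 0.08, under poly-A spike scaling. Among the 10 falls called in these 3 lists, 8 were not called when the hybridisation spikes set the scale, the exceptions being BNIP3 and APAF1. USP9X, which removes ubiquitin from MCL1, differed by -0.39 ± 0.14 (adjusted p = 0.115) and was called with the replicate block (0.0213).

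Of 17 transcription factor genes known to act on the family, 16 were measured, of which 2 rose and 5 fell, where 4.37% of all genes were called higher and 15.1% lower. Of the 16, 15 lay above the median signal, where 6.97% of all probe sets were called higher and 19.2% lower. STAT3 and STAT5A, which act on the survival genes, fell by 0.94 ± 0.07 (adjusted p = 1.94e-04) and 1.31 ± 0.18 (adjusted p = 0.00171). STAT5A averaged 985 ± 152 with calactin and 2483 ± 540 untreated. STAT5B averaged 2031 ± 26 with calactin and 2348 ± 71 untreated, a difference of -0.21 ± 0.06 that was not called (adjusted p = 0.0723) but was called with the replicate block (0.0362). FOXO3, a factor known for raising BCL2L11 and BBC3, rose by 0.62 ± 0.15 (adjusted p = 0.0236). Of its 4 probe sets, 3 were called higher. The call of its brightest ended when any array but untreated 2 was left out (highest adjusted p = 0.106). ATF4, an activator of PMAIP1 under stress, differed by 0.15 ± 0.06 and was not called. With the replicate block, NFKB1 (0.39 ± 0.12) and SP1 (0.24 ± 0.09) were called higher too, with adjusted p = 0.0273 and 0.0271, against 0.0669 and 0.13 without it. E2F1, a cell cycle factor, rose by 1.71 ± 0.16 (adjusted p = 3.44e-04), and EGR1, an immediate early gene, fell by 4.53 ± 0.40 (adjusted p = 2.92e-04). GATA1, the erythroid factor, fell by 0.86 ± 0.18 (adjusted p = 0.0121), a call that ended when calactin 1, calactin 3, untreated 1 or untreated 2 was left out (highest adjusted p = 0.0616).

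How far the 4 members with the largest changes depend on scaling was followed through every setting. MCL1 200797_s_at ranged from -0.77 to -0.09, BID 211725_s_at from -0.69 to -0.04, and BCL2L1 212312_at from -0.71 to 0.01, with PMAIP1 204285_s_at between 0.53 and 1.22. The far ends at -0.09, -0.04, 0.01 and 1.22 all came from poly-A spike scaling with the replicate block, a setting that moved the median of all probe sets to 0.53. Poly-A spike scaling was run only with the replicate block, so it changed the scale and the model together, and the calls of the 2 MCL1 and the 2 BID probe sets ended there. They ended too with the hybridisation spikes, where the changes were -0.56 and -0.62 for MCL1 and -0.52 and -0.50 for BID (adjusted p from 0.0643 to 0.271 without the block). Another MCL1 probe set, 200796_s_at, not called on the deposited scale, was called lower with the hybridisation spikes (-0.66, adjusted p = 0.0473). With the block added it was not called (0.159). The calls of both PMAIP1 probe sets ended when the hybridisation spikes set the scale and the replicate number was a block, with changes of 0.74 and 0.73 (adjusted p = 0.083 and 0.0884), and with replicates 1 and 2 alone, with 0.70 and 0.72 (0.0588 and 0.0935). Relative to the median of all probe sets under poly-A spike scaling, MCL1 lay at -0.62, BID at -0.57, BCL2L1 at -0.52 and PMAIP1 at 0.69.

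**Figure D5:**
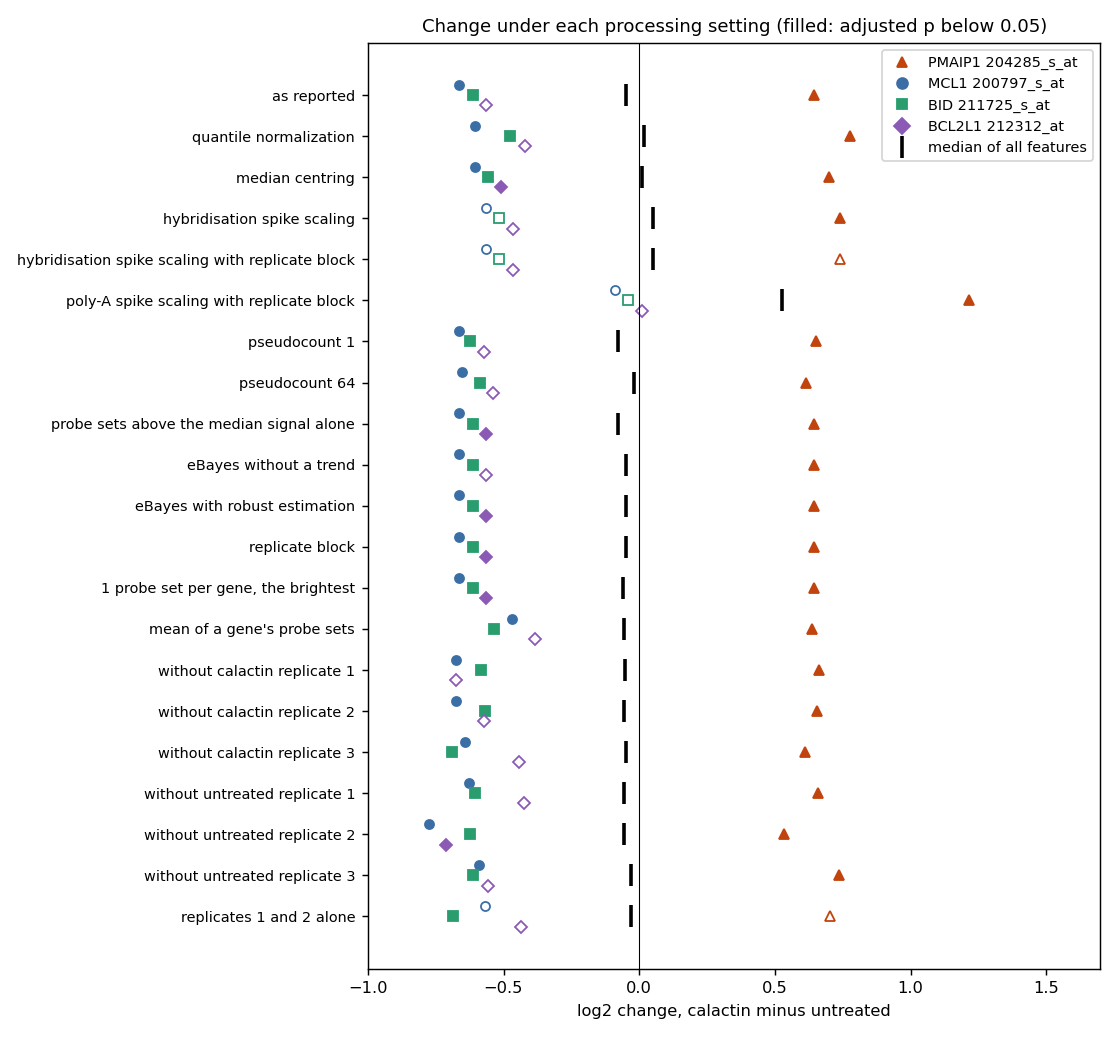
Log2 change (calactin minus untreated, horizontal axis) of the brightest probe sets of PMAIP1, MCL1, BID and BCL2L1 under each processing setting (rows), with filled markers for an adjusted p below 0.05 and a black tick for the median of all features. Where probe sets of a gene were averaged, the average stands in for its brightest probe set. PMAIP1 stays right of the tick and the other 3 left of it in every row, while BCL2L1 reaches 0.01 under poly-A spike scaling.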

How the data were processed

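Biotinylated cRNA from 6 samples of K562 cells was hybridised to 1-colour Affymetrix arrays, per the labels' protocols. The deposited files hold an intensity on a linear scale for each probe set. How the authors summarised, background-corrected or scaled these intensities is not given in the sources used here.

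Of 54675 probe sets, 62 array controls were left out. Of the rest, 41091 carried 1 symbol in the platform annotation, 1801 several and 11721 none. Intensities were turned into log2(intensity + 16) with no further scaling, so fold changes of dim probe sets are understated. limma 3.58.1 (lmFit, eBayes with a trend) in R 4.3.3 tested the difference of 3 calactin from 3 untreated arrays by a two-sided test with 4 residual degrees of freedom before moderation, and adjusted p over all 54613 probe sets (Benjamini-Hochberg, threshold 0.05). This unit of test differs from a fit over 1 probe set per gene, which is given as an alternative. The number of arrays limits the precision. A positive change is higher with calactin. Ratios of probe sets within a gene were fitted the same way. Gene lists were judged by each gene's brightest probe set, by its mean over the 6 arrays.

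All member probe sets were to be named, with up to 6 called genes of each other list by smallest p, and for likeness the 3 probe sets closest to MCL1 and to PMAIP1. The members, lists, motifs, tests and alternatives were chosen with earlier results of these data known. The alternatives were quantile normalization, median centring, scaling to the hybridisation spikes without and with the replicate block, scaling to the poly-A spikes with it, pseudocounts of 1 and 64, a filter on dim probe sets, other variance moderation, gene-level values, the replicate block and left-out arrays. Replicate numbers came from the titles. Over 27306 probe sets above the median signal, same-numbered arrays deviated together (r = 0.416, 0.322 and 0.243), so the numbers were taken as pairing the arrays. Tested on simulated data over 54613 probe sets, the fit called 18 of 100 probe sets changed by 1 on the log2 scale. It called 4 of 100 changed by 0.5, with 0 false calls. Far fewer probe sets were changed there than the 13.9% called in these data, which makes the adjustment of p stricter. The simulated shares therefore do not give the sensitivity of the fit here. Plots were drawn with matplotlib 3.10.9. Current symbols matched through the gene identifier for 41037 probe sets.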

Additional observations from a re-analysis of the deposited data

How the results depend on the processing

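Of all probe sets, 2011 were called higher and 5600 lower. Quantile normalization gave 3379 higher, hybridisation spike scaling 1300 higher and 2412 lower, the same with the replicate block 798 and 1677, poly-A spike scaling with the replicate block 31723 and 1858, and replicates 1 and 2 alone 340 and 1279. The brightest probe set per gene gave 975 and 3264 of 19775, and averaging them 797 and 2856, with fewer features tested. Without 1 array the counts were 1222 to 1949 and 3640 to 4832. Falls made up 73.6% of all calls without scaling, against 54.7% after quantile normalization and 5.53% where poly-A spike scaling and the replicate block were combined.

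In the BCL2 family, 2 probe sets were called higher and 4 lower. With the replicate block there were 4 and 7, under hybridisation spike scaling 2 and 1, with both 0 and 0, and under poly-A spike scaling with the replicate block 12 and 0. Probe sets above the median signal alone gave 9 lower and robust estimation 8 lower. The brightest probe set per gene gave 1 higher, averaging them 1 higher and 2 lower, and replicates 1 and 2 alone 0 and 2. Without 1 array there were 1 to 3 higher and 4 to 5 lower. Of the within-gene ratios 1976 were called, 1035 with a pseudocount of 1, 3110 with 64, and 1224 to 1644 without 1 array. In the family 2 were called, 1 with a pseudocount of 1, 4 with the replicate block, and 1 to 3 without 1 array. The cause of these shifts was not tested.

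Signs turned mostly under poly-A spike scaling with the replicate block, among probe sets not called on the deposited scale. There the values were 0.54 and 0.53 for MCL1 214057_at and 227175_at, 0.23, 0.44, 0.37 and 0.51 for BCL2 207004_at, 203685_at, 203684_s_at and 207005_s_at, 0.00935 and 0.0581 for BCL2L1 212312_at and 206665_s_at, 0.40, 0.37 and 0.19 for BCL2L11 222343_at, 208536_s_at and 1555372_at, 0.21 and 0.18 for BAX 211833_s_at and 208478_s_at, and 0.17 for BID 227143_s_at. The called HTRA2, VDAC1, VDAC3 and FBXW7 stood at 0.15, 0.0844, 0.32 and 0.0819. MCL1 214057_at was 0.12 under quantile normalization, 0.0276 under median centring and 0.0693 under hybridisation spike scaling with or without the block, and MCL1 227175_at was 0.012, 0.013 and 0.0546, and 0.0529 in replicates 1 and 2 alone. BCL2L11 222343_at was 0.00961 under quantile normalization. BCL2 207005_s_at was 0.0303 under hybridisation spike scaling with or without the block and 0.0548 in replicates 1 and 2 alone, where BCL2L1 231228_at was -0.0388. BCL2A1 was -0.15 with a pseudocount of 1. Without 1 array MCL1 214057_at ran from -0.14 to 0.0816, MCL1 227175_at from -0.14 to 0.0139, BCL2 203685_at from -0.29 to 0.0831, BCL2 207005_s_at from -0.14 to 0.0793, BCL2A1 from -0.15 to 0.34, and BCL2L11 1558143_a_at from -0.058 to 0.30 and 208536_s_at from -0.44 to 0.0221.

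With the replicate block every call of the family made without it was made too. Replicates 1 and 2 alone ended the calls of both PMAIP1 probe sets (adjusted p = 0.0588 and 0.0935), MCL1 200797_s_at (0.0807) and BID 204493_at (0.0961). Among genes of the other lists, quantile normalization ended the calls of BCL2L13, BOK, VDAC3 and FBXW7, and hybridisation spike scaling those of BCL2L12, BCL2L13, BOK, HTRA2, CASP9, VDAC1, VDAC3 and FBXW7. Signal limits BCL2A1 and 3 of the 4 BCL2 probe sets, which lay below the median of all.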
